A study of Oncorhynchus mykiss with 69 samples.

Results

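The genes insig1, hmgcra and nsdhl, which stand at the sensing, entry and late steps of cholesterol synthesis, were followed in 3 rainbow trout (Oncorhynchus mykiss) cell lines given either of a pair of chemicals: methylmercury, the organic form of mercury that builds up in fish, and fluoxetine, a serotonin reuptake inhibitor used against depression. All 3 genes fell with methylmercury in every line. Fluoxetine gave another picture: insig1 was highest at the highest concentration in both lines where it was tabulated. The genes were picked by their NCBI symbols (gene IDs 110489981, 100135848 and 110504568) and are 3 of the 35945 genes in any of the 6 fold-change tables.

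RTgill-W1 comes from gill (RTGill-W1 in the labels), RTL-W1 from liver and RTgutGC (labelled RTgutCC) from intestinal epithelium; they are called gill, liver and gut below. Cells of all groups were grown in L-15 medium with bovine serum and exposed for 24 h; the labels do not describe the medium during exposure. The methylmercury experiment had 12 libraries per line, 2 untreated controls and 2 at each of 5 concentrations, written 0.25, 2.5, 25, 125 and 250 in the tables and 0.001, 0.01, 0.1, 0.5 and 1 in the sample titles, with no unit in either. The fluoxetine experiment had 11 per line, a control named ctrl, a control named H2O and 1 library each at 1.6, 4, 8, 20, 40, 100, 200, 500 and 1000 ppb. A line is 1 cell source in culture, and nothing in the labels says that paired libraries came from separate cultures, so p-values measure only the spread between these libraries.

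Cells make cholesterol from acetyl-CoA through mevalonate and a long series of ring changes. In mammals the pathway is held in check by its product: when membrane sterol is plentiful, the Insig proteins keep the escort Scap and its cargo, the sterol regulatory element-binding proteins (SREBPs), in the endoplasmic reticulum, and when sterol runs low the SREBPs are cut free and switch on the synthesis genes. The gene insig1 encodes one of the Insig anchors and is itself an SREBP target. HMG-CoA reductase, encoded by hmgcra, makes mevalonate, the rate-limiting step, and Insig proteins also lead it to degradation. The enzyme encoded by nsdhl is a dehydrogenase that helps remove methyl groups from the sterol ring after lanosterol.

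The gene insig1 was tabulated in 5 of 6 fold-change tables (not analysed here in gill with fluoxetine), hmgcra in 5 (not in gut with fluoxetine) and nsdhl in 4 (with fluoxetine, only in gill). The authors' benchmark dose tables held all 3 genes for methylmercury in gill and liver and 0 of the 3 elsewhere. Reads in the tabulated genes were estimated at 7.75 to 11.5 M in the methylmercury experiment, where only the mean of a pair could be had, and at 1.84 to 7.68 M per fluoxetine library. Cell type markers matched by symbol gave little identity: in gill and gut the only epithelial marker tabulated, krt18b, stood at 0.581 and 0.478 RPM (reads per 1000000 tabulated reads of the same table) in the methylmercury controls against 3626 in liver, the hepatocyte marker tf stood at 164 RPM in liver, and 0 of 4 enterocyte markers was tabulated in gut. Collagen-led fibroblast markers summed to 8723 RPM in gill, 48538 in liver and 3309 in gut, and the leukocyte list to at most 0.732. At methylmercury 250 the fibroblast sums were 3179, 25720 and 5043 RPM. In liver krt18b then stood at 1544 RPM and the hepatocyte list at 40.5, and in gut the hepatocyte list, carried by the fibrinogen gene fga, went from 40.2 RPM in control to 79.2. The part of these markers in the results below was not tested.

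Levels are given as log2 normalised read counts, or as RPM. Because each table was normalised separately, levels set across lines are descriptions only. Methylmercury lowered the level of the median gene, by 0.89 log2 units in gill, 0.78 in liver and 1.01 in gut at 250, so changes of single genes are given relative to the median gene of the same line and concentration, with the deposited change beside them for the 3 genes and where it bears on the size or direction of a rise. Both are differences of log2 levels against the control. At 250 the summed normalised reads of the tabulated genes rose, by 0.25 log2 units in gill, 0.10 in liver and 0.25 in gut. Levels are therefore relative to the other reads and do not measure amounts of RNA. In these bulk cultures fewer cells of a kind and less RNA per cell cannot be told apart. Trout carry many near-identical gene copies, and reads shared between copies may have been split in the authors' quantification; the values belong to the named rows only.

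Untreated cells of the methylmercury experiment expressed hmgcra at 392 RPM in gill, 401 in liver and 271 in gut. The anchor gene insig1 stood at 228, 172 and 270 RPM. The late enzyme gene nsdhl was lower in liver and gut, at 55.7 and 56.7 RPM, than in gill, at 146. In every line nsdhl therefore had the fewest reads of the 3 genes; these are read shares, not corrected for transcript length.

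At the highest methylmercury concentration all 3 genes lay below the control in all 3 lines, and in the authors' deposited table the fall left between 12.2% and 37.5% of the control level. Relative to the median gene, the lowest value was that of nsdhl in gut, at -2.02 ± 0.13 log2 units (SE, 2 libraries per group), and the least negative that of insig1 in gut, at -0.40 ± 0.10. Each SE uses a moderated variance of the gene shared by all groups of the line, not the spread at 250 alone. It carries no uncertainty of the median gene. All 9 combinations of gene and line passed the moderated test at 250 (Benjamini-Hochberg adjusted p from 2.0e-05 to 0.0294). The same test called 19.6% of all gill genes lower, 13.3% of liver genes and 25.9% of gut genes, so being called lower was common.

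The SREBP anchor gene insig1 had the smallest change of the 3 genes in each line at 250. In gill its level was 12.81 in control and 12.85, 12.83, 12.62, 11.83 and 11.20 from 0.25 to 250 (log2, mean of 2 libraries, SE 0.11). In liver it ran from 12.55 in control over 12.59, 12.69, 12.51 and 11.85 to 11.01 (SE 0.15), and in gut from 13.10 over 13.21, 13.11, 12.68 and 12.21 to 11.68 (SE 0.07). The levels at the 2 lowest concentrations were at or above the control in each line. At 25 the change in the authors' deposited table was -0.19 in gill, -0.04 in liver and -0.41 in gut, where the SE of the difference was 0.10 and the uncentred test did not pass (adjusted p = 0.0920), and the lowest levels lay at 125 and 250. Relative to the median gene the change at 250 was -0.71 ± 0.15 in gill (adjusted p = 0.00961), -0.76 ± 0.21 in liver (adjusted p = 0.0294) and -0.40 ± 0.10 in gut (adjusted p = 0.0128). The authors' deposited table had -1.60, -1.54 and -1.41 there. These are modest positions in the table: 21.0%, 19.1% and 34.9% of all genes had a lower value. At 125 it was -0.52, -0.28 and -0.33 relative to the median and did not pass (adjusted p = 0.0600, 0.470 and 0.0659), whereas without centring it was -0.98, -0.71 and -0.89 and passed (adjusted p = 0.00286, 0.0405 and 6.9e-04). Against the median of the genes above the median of mean expression, the value of insig1 in gut at 250 was -0.14 and no longer passed (adjusted p = 0.239).

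The reductase gene hmgcra had more negative changes than insig1 in each line at 250 and passed the test at 125 too. Its gill level was 13.59 in control and 13.59, 13.54, 13.27, 12.13 and 11.30 from 0.25 to 250 (SE 0.08). In liver it went from 13.77 over 13.78, 13.71, 13.53 and 12.53 to 11.70 (SE 0.10), and in gut from 13.11 over 13.24, 13.07, 12.58 and 11.80 to 11.33 (SE 0.06). All 3 lines kept control levels up to 2.5 within these errors, apart from gut at 0.25, which lay 0.13 above with an SE of the difference of 0.08. The change at 250 relative to the median gene was -1.39 ± 0.12 in gill (adjusted p = 9.6e-05), -1.30 ± 0.14 in liver (adjusted p = 5.7e-04) and -0.76 ± 0.08 in gut (adjusted p = 2.5e-04), beside -2.29, -2.07 and -1.77 in the authors' deposited table. At 125 it was already -1.0 ± 0.12, -0.82 ± 0.14 and -0.74 ± 0.08, and passed in each line (adjusted p = 0.00112, 0.0123 and 8.3e-04).

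The ring enzyme gene nsdhl ended near hmgcra in gill and liver and below it in gut. Gill levels were 12.16 in control and 12.23, 12.15, 11.86, 10.86 and 9.94 from 0.25 to 250 (SE 0.07). Liver levels were 10.93 in control and 10.87, 10.94, 10.66, 9.84 and 8.92 (SE 0.13). Gut levels were 10.85 in control and 10.92, 10.75, 10.13, 9.26 and 7.82 (SE 0.09), so that 5.82 of 56.7 RPM remained. Relative to the median gene the change at 250 was -1.33 ± 0.10 in gill (adjusted p = 6.3e-05), -1.23 ± 0.19 in liver (adjusted p = 0.00270) and -2.02 ± 0.13 in gut (adjusted p = 2.0e-05). Fold changes in the authors' deposited table were -2.23, -2.01 and -3.03. In gut only 4.56% of genes had a lower value. At 125 the change passed in gill, at -0.85 ± 0.10 (adjusted p = 0.00134), and in gut, at -1.03 ± 0.13 (adjusted p = 0.00165), but not in liver, at -0.66 ± 0.19 (adjusted p = 0.0714), where the uncentred value of -1.08 did (adjusted p = 0.0121).

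**Figure D1:**
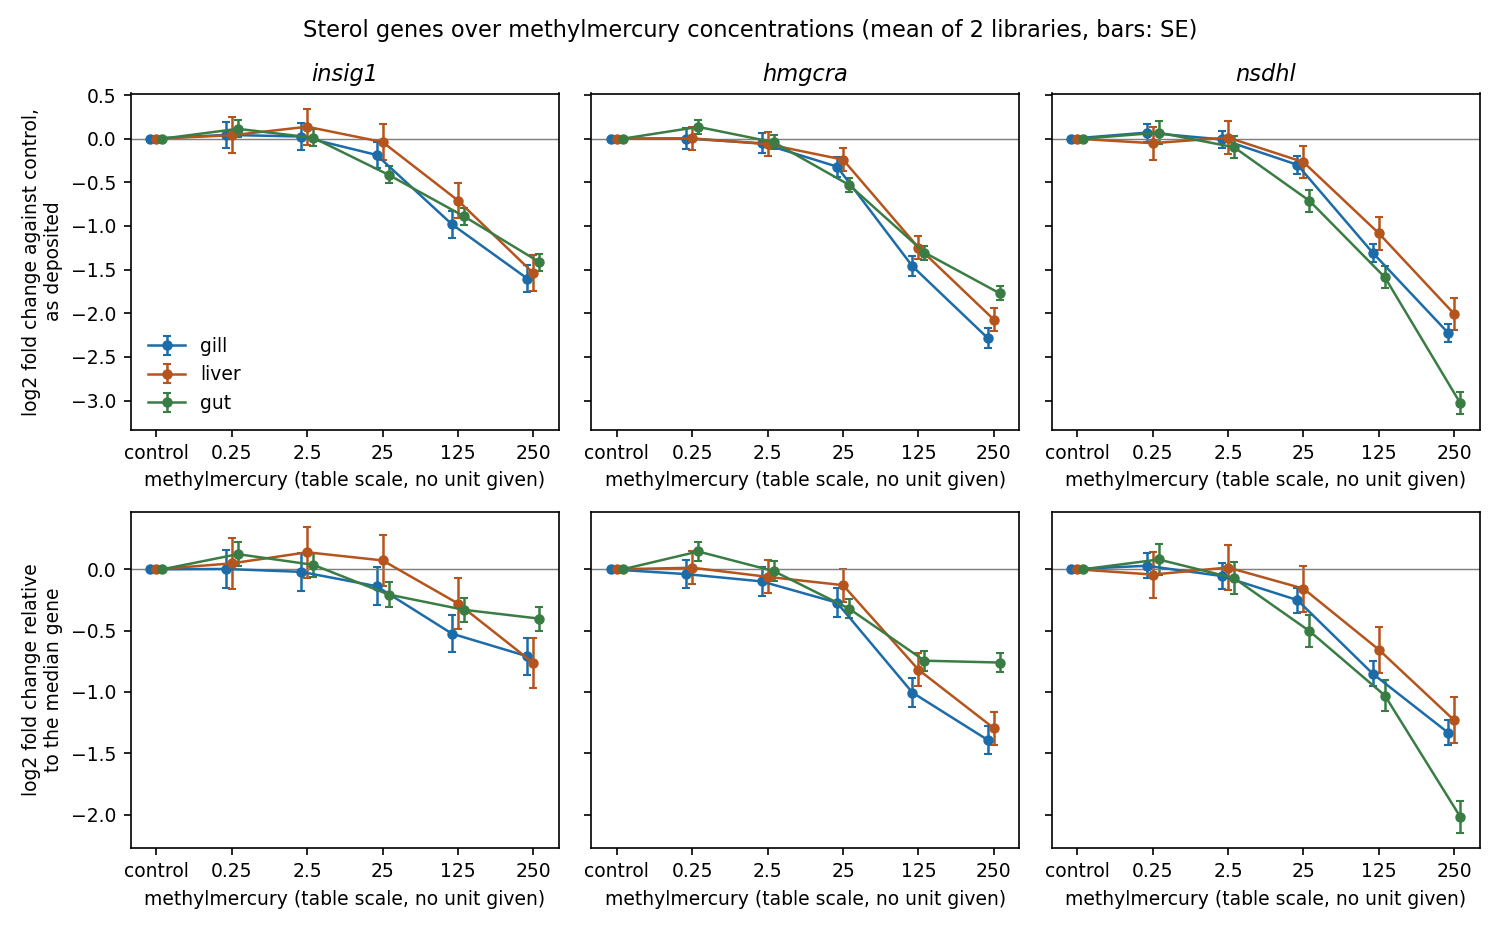
Log2 fold change of insig1, hmgcra and nsdhl (columns) against the control, as deposited (top) and relative to the median gene (bottom), at each methylmercury concentration on the table scale; points are means of 2 libraries, bars the SE of the difference, and colours the gill, liver and gut lines. The curves lie near 0 up to 2.5 and are lowest at 250. At 25 all 3 genes lie below 0 in gill and gut, each lowest in gut. The lowest end point is nsdhl in gut, at -2.02 relative to the median gene.

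Fewer calls were made at lower concentrations. At 125, gill had 2 of the 3 genes called lower, liver 1 and gut 2, where 6.22%, 2.35% and 7.24% of all genes were. At 25, 0 of 3 was called in any line, against 0.0487%, 0.0172% and 0.197% of all genes. The lowest values there were in gut, -0.50 ± 0.13 for nsdhl (unadjusted p = 0.00543, adjusted p = 0.138) and -0.32 ± 0.08 for hmgcra (unadjusted p = 0.00501, adjusted p = 0.132) in the moderated test. Uncentred, hmgcra in gut stood at -0.53 at 25 and passed (adjusted p = 0.0473). At 2.5, 0 of 3 was called, with 0.0177%, 0.0215% and 0.0229% of all genes called lower, and at 0.25 again 0 of 3, with 0.00886%, 0.0259% and 0.032%. Over these 2 lowest concentrations the 18 values relative to the median ran from -0.10 to 0.15.

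Over all concentrations together, the F-test of the authors' deposited table called all 3 genes in each line, with adjusted p between 1.5e-05 for hmgcra in gut and 0.00296 for insig1 in liver. Of all gill genes this test called 56.8%, of liver genes 45.8% and of gut genes 63.4%. With fold changes taken relative to the median gene, 8 of the 9 calls held, and that of insig1 in liver did not (F = 5.54, adjusted p = 0.0860). The share of all genes called by this centred F-test is not given here.

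In the last step, from 125 to 250, the 3 genes lay furthest apart in gut; differences between genes were not tested. Relative to the median gene, nsdhl in gut lost a further 0.99 ± 0.13 log2 units (adjusted p = 0.00146), whereas hmgcra in gut stood at -0.02 ± 0.08 between these concentrations (adjusted p = 0.907). In gill nsdhl lost a further 0.48 ± 0.10 (adjusted p = 0.0240), and hmgcra differed by -0.39 ± 0.12 (adjusted p = 0.0698). None of the 3 genes passed in liver, where the differences were -0.49 ± 0.21 for insig1, -0.48 ± 0.14 for hmgcra and -0.58 ± 0.19 for nsdhl (adjusted p = 0.224, 0.0969 and 0.131). The share of all genes called lower in this step was 7.32% in gill, 1.69% in liver and 18% in gut. Beside these stand 1, 0 and 1 calls among the 3 genes, a number of genes too small for a comparison of shares. These calls depend on the centring: without it, all 9 combinations were lower at 250 than at 125 and passed (the gut value of hmgcra was then -0.47, adjusted p = 0.00265). The median gene itself went from -0.46 at 125 to -0.89 at 250 in gill, from -0.43 to -0.78 in liver and from -0.56 to -1.01 in gut. The share of all genes passing this uncentred step is not given here.

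Gut stood at opposite ends of the 3 lines for hmgcra and nsdhl. For hmgcra gut changed least at 250: gill minus gut was -0.63 ± 0.14 (adjusted p = 0.00914) and liver minus gut -0.54 ± 0.16 (adjusted p = 0.0376) relative to the median gene. For nsdhl gut changed most: gill minus gut was 0.69 ± 0.16 (adjusted p = 0.0120) and liver minus gut 0.79 ± 0.23 (adjusted p = 0.0322). Gill and liver did not pass for either gene, with 95% intervals of gill minus liver from -0.48 to 0.28 for hmgcra and from -0.57 to 0.37 for nsdhl (adjusted p = 0.763 and 0.796). For insig1 0 of 3 pairs passed, the widest being liver minus gut at -0.36 ± 0.23 (adjusted p = 0.320). These p-values were adjusted over all genes and the 3 pairs together, and 13.4% of genes differed between gill and liver, 17.1% between gill and gut and 18.2% between liver and gut. As deposited, without centring, liver minus gut for hmgcra was -0.30 and did not pass (adjusted p = 0.211), and against genes above the median of mean expression liver minus gut for nsdhl was 0.63 (adjusted p = 0.0592).

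A ratio of 2 genes within a line is free of any centring. The deposited log2 fold change of hmgcra minus that of nsdhl at 250 was -0.06 in gill, -0.06 in liver and 1.26 in gut, so the ratio of the reductase to the ring enzyme transcript stood at 0.960 and 0.957 times its control value in gill and liver and at 2.39 times in gut. At 125 the same difference was -0.15, -0.16 and 0.28. For insig1 minus hmgcra the values at 250 were 0.68, 0.53 and 0.36, positive in all 3 lines. No test was run on these ratios.

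The authors' benchmark dose marks where the curve fitted to a gene departs from control by a chosen response, which for these genes equalled 1 residual SD of the curve. In gill the authors' deposited table put it at 5.56 (bounds 2.36 to 8.80) for hmgcra, 5.09 (2.0 to 8.19) for nsdhl and 12.5 (5.28 to 19.9) for insig1. These ranked 269, 241 and 1105 from the lowest of the 4821 genes whose fit passed all of the authors' own criteria (of 4863 rows), and the median of these was 23.1. In liver the authors' deposited table gave 7.59 (3.21 to 12) for hmgcra, 15.8 (5.78 to 25.8) for nsdhl and 25.4 (22.4 to 29.4) for insig1, ranks 300, 807 and 1564 of the 3482 passing genes (of 3534 rows), with a median of 28.2. The order of hmgcra before insig1 was the same in both lines, and in liver their bounds did not overlap. These doses mark unlike responses, in liver a drop of 0.09 log2 units for hmgcra and 0.16 for insig1, on curves of different form. The curves describe levels that were not centred on the median gene. Each of these values lies between concentrations that were run. At 25 no gene of the 3 passed the test against control in gill or liver, with or without centring. The 6327 rows of the gut benchmark dose table included 0 of the 3 genes.

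**Figure D2:**
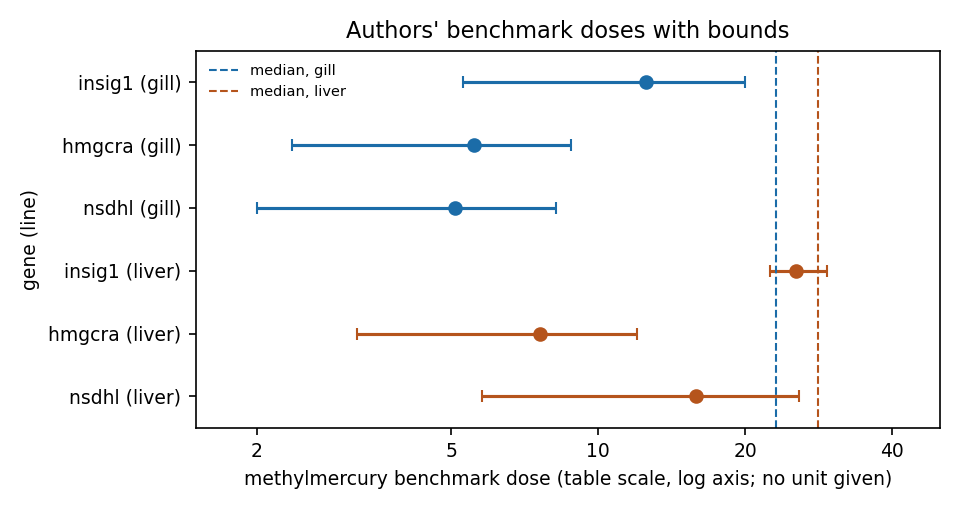
Benchmark doses of the authors' deposited tables for methylmercury (log axis, table scale) for each gene in gill and liver, with bars from the lower to the upper bound and dashed lines at the median over the genes whose fit passed all of the authors' criteria. In gill hmgcra and nsdhl lie at 5.56 and 5.09, under the gill median of 23.1, and insig1 in liver, at 25.4, lies nearest to its line's median of 28.2.

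Other genes of sterol synthesis and handling were taken from 5 lists matched by symbol, leaving the 3 genes out. At 250, relative to the median gene, gill had 12 of 26 measured genes called lower and 3 higher, liver 6 of 25 lower and 3 higher, and gut 15 of 25 lower and 4 higher, beside the 19.6%, 13.3% and 25.9% of all genes called lower. For the genes called higher no such share of all genes is given here. The list medians were -0.35, -0.38 and -0.67. Without centring, 23, 22 and 23 were called in either direction, for which the share of all genes is not given here. The F-test of the authors' deposited table called 23, 20 and 24, beside 56.8%, 45.8% and 63.4% of all genes.

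Among the steps to squalene, gill had 6 of 8 genes called lower, liver 2 of 8 and gut 6 of 7. Called or not, 6 of 8, 6 of 8 and 7 of 7 lay below the median gene. Squalene synthase, fdft1, fell in each line (-1.21 ± 0.10, -1.18 ± 0.14 and -1.62 ± 0.18, and -2.10, -1.95 and -2.63 in the authors' deposited table). Mevalonate kinase, mvk, was the lowest of them in gill at -1.47 ± 0.18 (moderated test, adjusted p = 6.5e-04). In gill acat2, a thiolase, stood at 0.21 ± 0.09, and pmvk, phosphomevalonate kinase, at 0.05 ± 0.11 there and 0.22 ± 0.12 in liver, none of which passed (adjusted p = 0.102, 0.781 and 0.220). As deposited these were below control, at -0.68, -0.85 and -0.56, so the direction rests on the centring. The F-test of the authors' deposited table called all of them (adjusted p = 8.2e-04, 5.8e-04 and 0.0274). The 1 gene called higher was ggps1, which makes the isoprenoid geranylgeranyl diphosphate off the sterol branch and of the methylmercury tables was only in that of liver: it rose by 1.32 ± 0.20 relative to the median gene (adjusted p = 0.00244), from 14.5 RPM in control. In the authors' deposited table it was 0.54 above control, and the F-test there did not call it (adjusted p = 0.310).

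Relative to the median gene at 250, every measured ring-step gene was called lower in gill (5 of 5). Calls were fewer in liver, with 2 of 6 lower, and gut had 5 of 6. Called or not, all lay below the median gene except lbr in liver, at 0.14. As deposited, lbr in liver was also below control, at -0.63. Without centring, all ring-step genes were called in each line, for which the share of all genes is not given here. In gut nsdhl, at -2.02, lay below all 6 others, among them tm7sf2, a sterol reductase, at -0.96 ± 0.13. In gill, at -1.33, it also lay below all 5, of which lanosterol synthase, lss, was lowest at -1.09 ± 0.18. Liver had the same order, with lss lowest of the 6 at -0.79 ± 0.12.

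In the control group, amfra, whose mammalian counterpart is a ubiquitin ligase that acts with Insig on the reductase, fell in all 3 lines (-1.13 ± 0.10, -0.76 ± 0.15 and -1.25 ± 0.13). It was the 1 gene of 4 to pass in gill and in liver. In gut 2 of 5 passed, the other being insig2, which encodes the second Insig and fell by 1.00 ± 0.15. Relative to the median gene the SREBP genes did not pass. On that scale srebf2 stood at 0.26 ± 0.11 in liver and -0.15 ± 0.08 in gut. The gene srebf1 stood at 0.35 ± 0.13 in gill (moderated test, adjusted p = 0.113, 0.147 and 0.0836 in this order). As deposited all of them were below control, at -0.51, -1.16 and -0.55. The F-test of the authors' deposited table called each (adjusted p = 0.0141, 5.2e-05 and 0.0139). Without centring, every measured gene of this list was called in each line. The missing calls therefore rest on the centring, as does the direction of srebf2 in liver and srebf1 in gill.

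Genes of sterol uptake and movement were mixed at 250. Gill had 0 of 5 called, liver 1 of 4, lower, and gut 4 of 5, of which 2 were lower and 2 higher. Of all genes 19.6%, 13.3% and 25.9% were called lower. In gut soat1 stood at -1.66 ± 0.14 relative to the median gene (moderated test, adjusted p = 9.3e-05) and at -2.68 as deposited. In gill it stood at -0.30 ± 0.17 and did not pass (adjusted p = 0.207). The cholesterol carrier gene stard4, also an SREBP target in mammals, fell by 1.95 ± 0.22 in gut (adjusted p = 3.3e-04) and by 1.38 ± 0.30 in liver (adjusted p = 0.0122). In gill it stood at -1.66 ± 0.61 and did not pass (adjusted p = 0.0708). The lysosomal cholesterol exporters npc1 and npc2 rose relative to the median gene in gut, by 0.46 ± 0.08 and 0.96 ± 0.09. As deposited they were at -0.55 and -0.05 in the authors' deposited table, so the direction rests on the centring.

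Measured genes of sterol efflux and of oxysterol signalling all lay above the median gene, gill having 3 of 4 called higher, liver 2 of 3 and gut 2 of 2. As deposited, the list median was -0.01 in gill, so a rise of the group against control is not shown there. It was 1.45 in gut, over 2 genes. In liver it was 1.40, the value of abcg5 at about 1.44 control reads per library. The counts of calls include abcg5 in gill and ch25h in liver, both with almost no control reads. The share of all genes called higher is not given here, so these counts cannot be set against it. In liver the test without centring called 1 of the 3, and the F-test of the authors' deposited table called 0 (adjusted p = 0.138 for ch25h and 0.219 for mylipb). The gene ch25h makes 25-hydroxycholesterol, an oxysterol that in mammals binds Insig and holds the SREBPs back. It rose by 3.23 ± 0.19 in gut (adjusted p = 1.5e-05), from 2.64 RPM in control (2.22 in the authors' deposited table), and by 1.33 ± 0.38 in gill (adjusted p = 0.0298), from 9.36 RPM. In liver its control level was about 1 read per library and that at 250 about 27.9, and it passed as well (adjusted p = 0.0304). In gill 1 of these calls was abcg5, a sterol exporter subunit with 0 reads in control and about 9.56 per library at 250. Against a floor of 3 counts per library its level at 250 was at least 2.46 log2 units higher relative to the median gene. Without centring this bound was 1.57. In gut mylipb, whose mammalian counterpart degrades the lipoprotein receptor, rose by 1.70 ± 0.18 (adjusted p = 2.2e-04), beside 0.69 in the authors' deposited table. As deposited, abca1b, a sterol exporter called higher in gill, was 0.47 below control, so its direction rests on the centring, and ch25h in gill was 0.44 above control in the authors' deposited table, and the uncentred F-test there did not call it (adjusted p = 0.790).

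**Figure D3:**
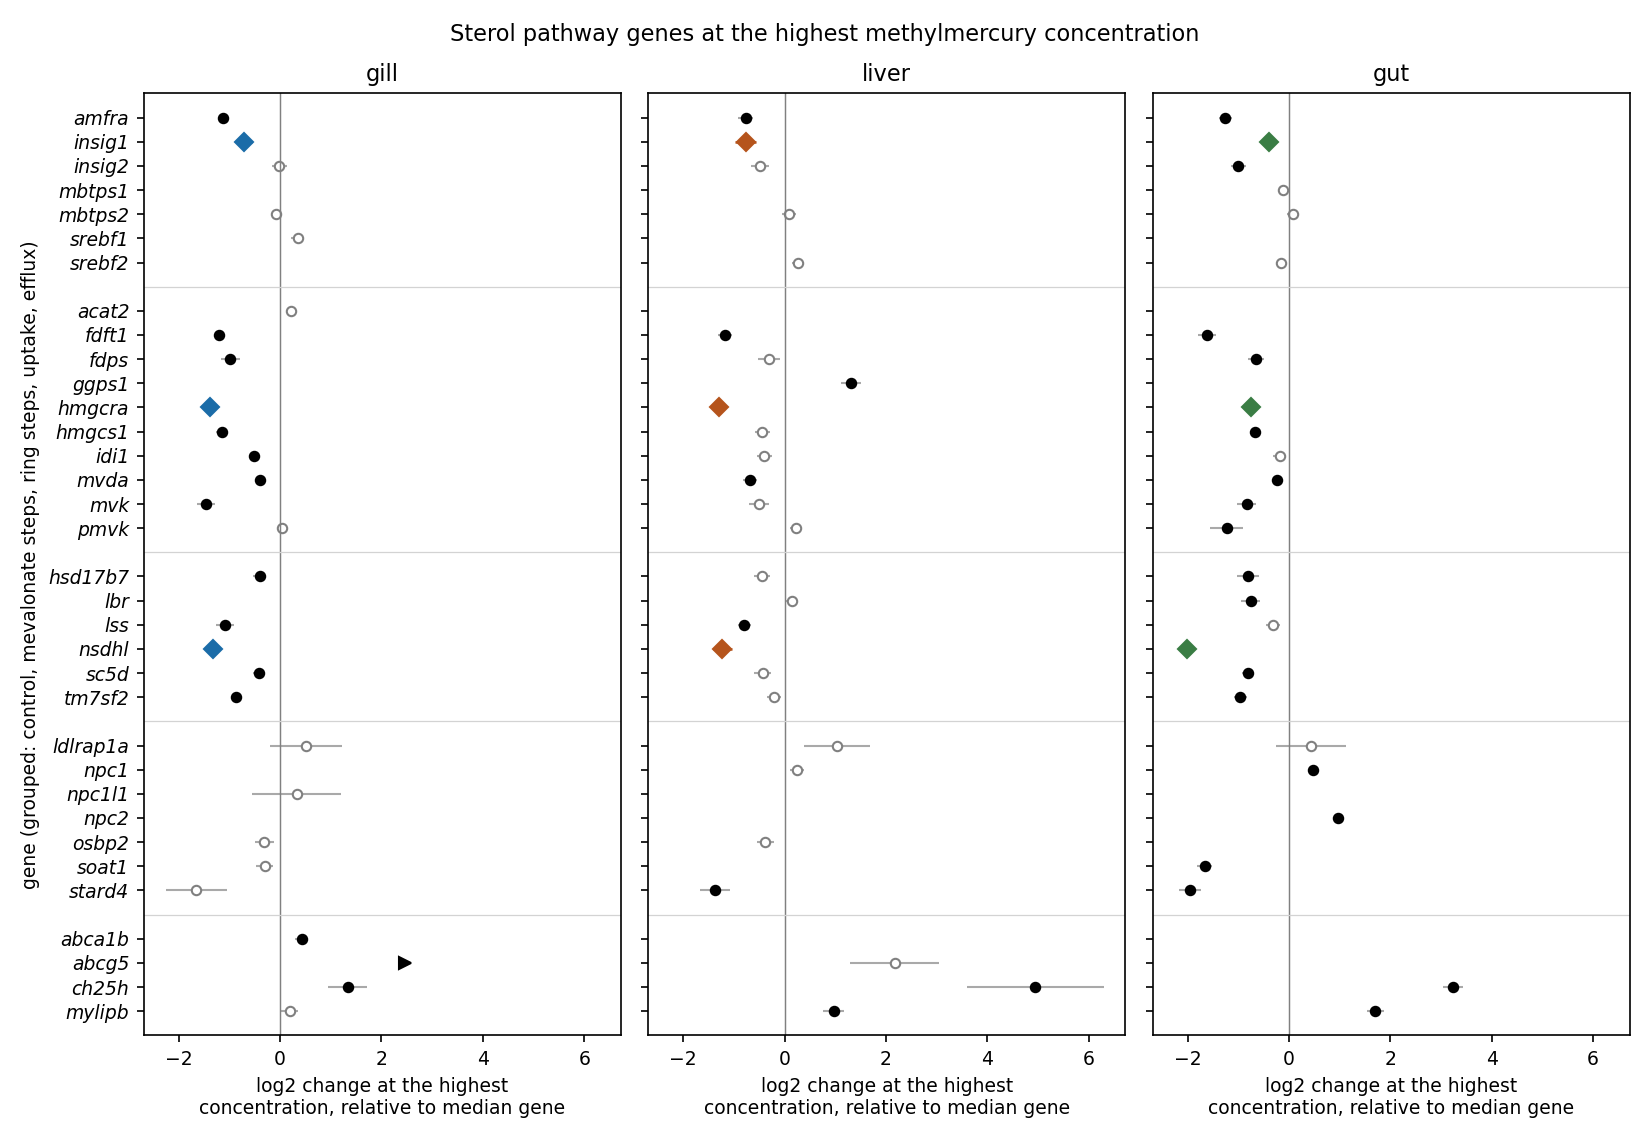
Log2 change at the highest methylmercury concentration relative to the median gene for genes of the 5 sterol lists, in the gill, liver and gut lines. Groups from top to bottom are sterol sensing and SREBP control, steps to squalene, ring steps, uptake and movement, and efflux. Bars are SE (2 libraries per group). Coloured diamonds are insig1, hmgcra and nsdhl, filled circles genes that passed the test, open circles genes that did not, and the triangle a lower bound for abcg5; nsdhl in gut, at -2.02, is the lowest of the ring genes and ch25h lies to the right in all 3 panels.

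As a description, the tabulated genes with a symbol were ranked by the likeness of their course to each of the 3 genes, over the 18 group means of the methylmercury experiment, centred on the median gene and within line (3006 genes). These points share libraries, depth and the overall fall with concentration. Nearest to insig1 were anxa3b (Pearson r = 0.980), hmgcra (0.978), zgc:110269 (0.970), oxct1a (0.964) and lss (0.964). Nearest to hmgcra were uts2r2 (0.983), capslb (0.982), insig1 (0.978), ub2v2 (0.978) and gcshb (0.973). The neighbours of nsdhl were other genes, cby1 (0.994), spast (0.989), acaa2 (0.989), anapc13 (0.987) and aldh9a1a.1 (0.986). It stood further from insig1 (0.890) and hmgcra (0.903) than these 2 from each other. At 250 all 5 neighbours of nsdhl had, like it, their lowest value in gut. They were picked by likeness over these same values, so the shared low point is no separate result. An example is spast, a microtubule-severing enzyme, at -1.74 in gill, -1.54 in liver and -2.25 in gut.

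With fluoxetine insig1 was highest at the top concentrations in liver and gut. In liver both controls stood at 14.37 and 14.44, and the single libraries from 1.6 to 40 ppb lay between 14.35 and 14.46. Above that they stood at 14.56 at 100 ppb, 14.57 at 200, 15.00 at 500 and 15.29 at 1000, each above both controls. Against the control mean the last 2 values were 0.59 and 0.88 log2 units in the authors' deposited table, and the read share went from 1152 to 2104 RPM. In gut the controls stood at 15.32 and 15.35, and the libraries from 1.6 to 40 ppb between 15.33 and 15.38. From 100 to 1000 ppb gut libraries stood at 15.42, 15.52, 15.64 and 15.82, again above both controls. The fold changes in the authors' deposited table were 0.08, 0.18, 0.31 and 0.49 over these concentrations, and the median of all genes stayed within 0.02 of the control at each of them. At 1000 ppb 93.3% of liver genes and 88.4% of gut genes had a lower fold change than insig1. At 100 ppb the shares were 70.0% and 61.0%, so values as high were common there.

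Whether this pattern passed a test depended on the form of the trend. The F-test of the authors' deposited table, with 1 library per concentration, called no gene (gill 0%, liver 0%, gut 0%; adjusted p = 0.677 for insig1 in liver and 0.937 in gut), although 2528, 2454 and 2253 genes had an unadjusted p under 0.05. A limma trend on log10 of the concentration also called no gene in any line (0%, 0% and 0%; 1203, 1515 and 1471 genes at an unadjusted p under 0.05). In it the slope of insig1 was 0.25 ± 0.06 log2 units per 10-fold step in liver (adjusted p = 0.482) and 0.13 ± 0.03 in gut (adjusted p = 0.670). A limma trend on the concentration itself gave 0.94 ± 0.09 log2 units per 1000 ppb in liver, adjusted p = 0.00469 and the fifth smallest p of the table. In gut the slope was 0.49 ± 0.07 (adjusted p = 0.0305). That form called 0% of genes higher in gill, 0.0595% in liver and 0.067% in gut. Leaving out each treated library in turn kept the liver call in 9 of 9 fits (adjusted p from 0.00297 to 0.0492). The gut call was kept in only 2 of 9, without the 200 or the 500 ppb library. It was lost without the 1.6, 4, 8, 20, 40, 100 or 1000 ppb library, with adjusted p up to 0.301, and also when libraries were centred on their median gene (adjusted p = 0.0689).

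The reductase gene hmgcra took another course with fluoxetine. In liver the controls stood at 14.38 and 14.45, and the libraries from 1.6 to 1000 ppb at 14.47, 14.38, 14.30, 14.33, 14.23, 14.15, 14.13, 14.35 and 14.64. The 200 ppb library was thus lowest, at -0.29 in the authors' deposited table, and the 1000 ppb library highest, at 0.22. In gill the controls stood at 13.37 and 13.48 and the libraries at 13.41, 13.38, 13.49, 13.40, 13.27, 13.18, 13.32, 13.61 and 13.68. There the 100 ppb library was lowest, at -0.25, and the 1000 ppb library highest, at 0.25, in the authors' deposited table. Neither limma trend called it: the slope on log10 concentration was -0.02 ± 0.05 in liver and 0.04 ± 0.05 in gill (adjusted p = 0.977 and 0.952).

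For nsdhl in gill the fluoxetine controls were 11.64 and 11.83, and the libraries 11.48, 11.73, 11.69, 11.49, 11.54, 11.49, 11.49, 11.71 and 11.71 from 1.6 to 1000 ppb. The 5 libraries at 1.6, 20, 40, 100 and 200 ppb lay below both controls, by up to 0.26 against their mean in the authors' deposited table, and the others between the controls. The trend on log10 concentration was -0.02 ± 0.05 (limma, adjusted p = 0.967).

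**Figure D4:**
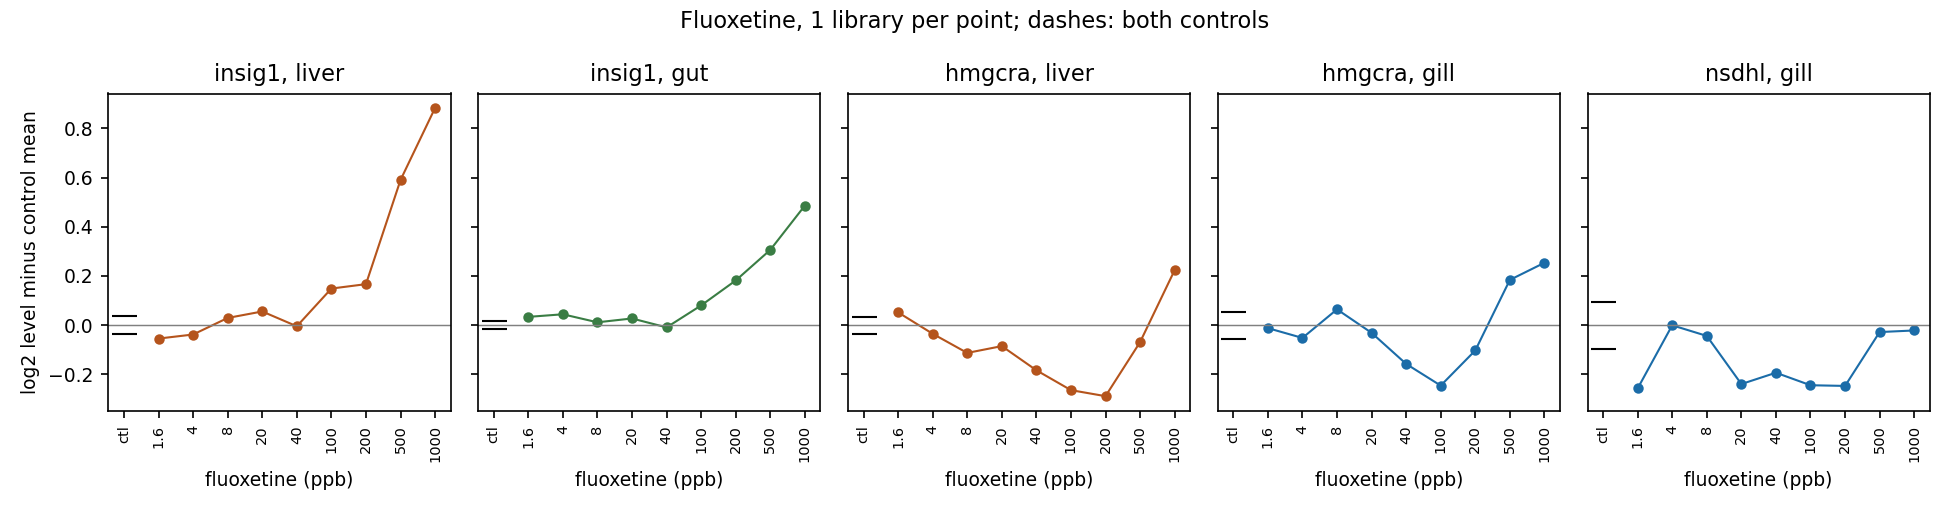
Log2 level minus the control mean for each gene and line tabulated with fluoxetine, against concentration in ppb (categories); dashes mark both controls (ctl) and each point is 1 library. In liver insig1 reaches 0.88 and in gut 0.49 at 1000 ppb. In liver and gill hmgcra lies below both controls at 100 ppb and above them at 1000 ppb.

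Most other synthesis genes of the lists lay on the same side of the control as hmgcra at its lowest and highest points. These points were picked by hmgcra in the same libraries, so the match there is no separate result. In liver at 500 ppb hmgcra stood at -0.07 and 7 of 10 lay above the control. In gill it stood at -0.10 at 200 ppb with 6 of 11 above, and at 0.06 at 8 ppb with 6 of 11 below. At the remaining concentrations of both lines most lay on the side of hmgcra. In liver 10 of 10 tabulated synthesis genes lay below the control mean at 200 ppb (median -0.25, from -0.48 to -0.10) and 10 of 10 above it at 1000 ppb (median 0.23, from 0.05 to 0.38), whereas 53.6% and 51.3% of all genes lay below. In gill 9 of 11 lay below at 100 ppb (median -0.17) and 11 of 11 above at 1000 ppb (median 0.13), where 46.4% and 40.3% of all genes lay below. The median of all gill genes was itself 0.09 at 1000 ppb. Relative to it, idi1, pmvk, fdft1 and tm7sf2 lay slightly below, the lowest being pmvk at -0.06. All values at 1 concentration come from 1 library and share both controls, so the genes are not replicates of the condition. Of the listed genes outside the 3, none passed the linear trend (limma; gill 0 of 20, liver 0 of 21, gut 0 of 8). The gene srebf1, which encodes an SREBP, came nearest in liver, at 0.78 in the 1000 ppb library of the authors' deposited table (linear slope 0.81, adjusted p = 0.0757). In liver at 200 ppb insig1 stood at 0.17, above the control, while the synthesis genes stood below it.

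**Figure D5:**
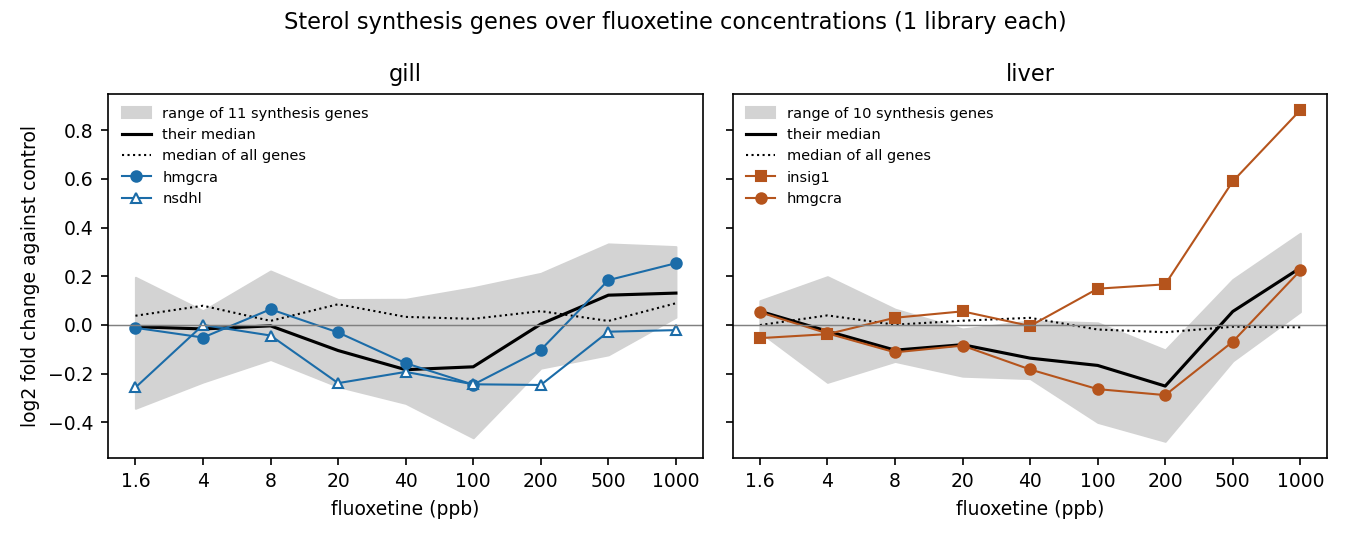
Log2 fold change against the control at each fluoxetine concentration (ppb, categories) in gill and liver, with the range (grey) and median (solid line) of the other sterol synthesis genes, the median of all genes (dotted) and the coloured courses of insig1, hmgcra and nsdhl; each point is 1 library. In liver hmgcra and the median of the synthesis genes lie below the control at 200 ppb (median -0.25) and above it at 1000 ppb (median 0.23). At 500 ppb hmgcra lies below the control and that median above it. In liver insig1 lies above their range at 20 ppb and from 100 ppb on.

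Side by side, the log2 fold change of insig1 in the authors' deposited table was 0.88 in liver at the highest fluoxetine concentration and -1.54 at the highest methylmercury concentration, and in gut 0.49 and -1.41. The doses, controls and tables of both chemicals differ, and the difference was not tested.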

How the data were processed

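RNA sequencing was done on 69 libraries of 3 rainbow trout cell lines. Per the submitters' processing notes, reads were handled with fastp and Salmon; versions and genome build are not given in the sources used here. The authors deposited log2 fold changes against the control mean and log2 mean expression per gene, an F statistic (a score), p-values with their adjustment, and benchmark doses, in 12 tables whose columns have the form that limma writes. Counts per library were not used here. All 35945 gene IDs matched a symbol in RefSeq's table (assembly USDA_OmykA_1.1); for 8378 of them the symbol was not a locus number.

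Group means and the moderated residual variance were recovered algebraically from the deposited log2 values, F and p-values; recomputed control means differed by at most 9.8e-14 and adjusted p-values by at most 3.3e-15. For methylmercury only pair means were recoverable, for fluoxetine each library (the higher control unidentified). Back-transformed with an offset of 0.5, between 69.1% and 73.6% of low fluoxetine values lay within 0.05 of a whole number, so values are near read counts, and no count model was fitted. Methylmercury changes were centred on the median gene and tested two-sided with the recovered variance, Benjamini-Hochberg adjusted over all genes of a table; the threshold was 0.05. Fluoxetine trends used limma 3.58.1 in R 4.3.3 on log10 of concentration plus 1.6 ppb and, as an alternative, on concentration. Other computation used Python 3.11.15 with scipy 1.17.1. A check on simulated data was also made, but the tests it covered and its outcome are not given here, so it backs none of these results. Depth limits low genes, and floors of 3 counts cover counting error only.

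The genes, lists and tests were chosen with earlier results of these data known. Named genes were the 3 members, the 3 listed genes per line with the largest absolute centred change at methylmercury 250 among those that passed, and the 5 most alike in course; other list genes were named after their values were seen, and 1 listed gene is not reported here by name. Promoter and paralogue descriptions were not made, since no sequences or descriptions were used here.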

Additional observations from a re-analysis of the deposited data

Results flagged for a closer look

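Differences between lines in the response to methylmercury 250, relative to the median gene, passed their own test in 4 cases. For hmgcra, gill minus gut was -0.63 and liver minus gut -0.54 log2 units. For nsdhl, gill minus gut was 0.69 and liver minus gut 0.79. Gut thus had the smallest fall of the reductase gene and the deepest fall of the ring enzyme gene. The hmgcra difference between gill and gut kept its direction and passed under each of the centrings tried, and so did the nsdhl difference between gill and gut.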

How the results depend on the processing

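Of the values recomputed under the alternatives, 211 kept their direction and call (counts: stayed within 1.5 times), 25 newly passed, 13 no longer passed, 12 turned direction and 4 counts moved by more. The gut fall of insig1 at methylmercury 250 was lost against genes above the median of mean expression (-0.14), and the centred F-test lost insig1 in liver (5.54). Uncentred, the step from 125 to 250 passed for insig1 (-0.62 in gill, -0.83 in liver, -0.52 in gut), hmgcra (-0.82, -0.82, -0.47) and nsdhl in liver (-0.92). Scaled to total tabulated reads, chosen after seeing the data, the same steps passed at -0.72, -0.91, -0.78, -0.92, -0.90, -0.72 and -1.0. Against the same genes the gut steps of insig1 and hmgcra turned to 0.14 and 0.20. The change of insig1 in liver at 25 turned from 0.072 to -0.039 uncentred and -0.0095 scaled to the total. Of the line differences, insig1 gill minus liver turned to -0.062 uncentred and -0.21 scaled to the total, insig1 liver minus gut to 0.029 scaled to the total, hmgcra liver minus gut no longer passed at -0.30 uncentred and -0.14 scaled to the total, and nsdhl liver minus gut at 0.63 against those genes. Called pathway genes moved from 15 to 23 in gill and from 9 to 20 (F-test) or 22 (uncentred) in liver. The cause was not tested.

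On linear fluoxetine concentration, insig1 passed in liver (0.94) and gut (0.49), and the uncalled slopes of nsdhl in gill and hmgcra in liver turned to 0.10 and 0.23. Leaving out each treated library in turn, slopes on log10 concentration ran from 0.17 to 0.27 for insig1 in liver, 0.09 to 0.14 in gut, -0.094 to 0.0072 for hmgcra in liver, -0.0094 to 0.058 in gill and -0.051 to -0.0076 for nsdhl in gill. Linear slopes, a repeat chosen after seeing the data, ran from 0.89 to 1.18, 0.48 to 0.62, -0.19 to 0.26, 0.28 to 0.34 and 0.04 to 0.12 in the same order. No paired analysis was possible because only the mean of each methylmercury pair could be recovered, so leaving out a methylmercury replicate was not run either.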

Other observations

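The untreated cells of both experiments differed in insig1. In liver its share of reads was 172 RPM in the methylmercury controls and 1152 RPM in the fluoxetine controls, and in gut 270 and 1765 RPM. The shares of the other genes were also higher in the fluoxetine controls. For hmgcra they were 401 and 1158 RPM in liver and 392 and 783 in gill, and for nsdhl 146 and 242 in gill. Relative to the median of the genes present in both tables of a line, insig1 was 1.33 log2 units higher in the fluoxetine controls of liver (9.35% of 17474 shared genes differed more in that direction) and 1.66 higher in gut (6.90% of 16203). On the same scale hmgcra differed by 0.11 in liver and -0.29 in gill, and nsdhl by -0.55 in gill, where 10% to 90% of shared genes ran from -0.85 to 1.08. The tables were normalised separately, the experiments differ in depth, and the fluoxetine controls include a library named H2O, so experiment and control treatment cannot be told apart, and the difference was not tested.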
